A study of Mus musculus with 7 samples.

Results

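The genes described here are the amino acid transporters of the Slc1a, Slc3a, Slc7a, Slc36a, Slc38a and Slc43a families in LLC1 cells, a cultured line derived from the mouse Lewis lung carcinoma. They were taken by symbol, as one of these family names followed by a number, which gave 42 members among the 24419 genes of the count table. Polyadenylated RNA was sequenced from 3 libraries of LLC1 cells carrying an shRNA that lowers Ddx54, a nucleolar RNA helicase of the DEAD-box type, and from 4 libraries of LLC1 cells labelled wild type for DDX54. All 7 libraries come from cells grown in DMEM with serum. The labels give no shRNA sequence, clone or separate cultures, and say of no control shRNA that the wild-type cells carried it. P-values therefore cover only the spread from library to library, which may be technical. Immune cells sorted from tumours, which the series also mentions, were not analysed here.

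Amino acids cross the plasma membrane through carriers that differ in substrate and in the way they are driven. Slc7a light chains pair with a glycoprotein heavy chain, Slc3a2 or Slc3a1, and mostly exchange one amino acid for another, while the Slc38a and Slc1a carriers use the sodium gradient to concentrate glutamine, alanine, serine or glutamate in the cell. The exchangers can then spend those amino acids to bring in leucine, cystine and other substrates. Members of Slc36a and Slc38a also sit in the lysosome membrane, where they pass amino acids to the cytosol or signal to the mTORC1 kinase. Several of these genes are known targets of Atf4, the transcription factor that is translated when amino acids run short.

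Total counts were 14987324 to 17702932 in the knockdown libraries and 15293346 to 18673395 in the wild-type libraries, and the members took 0.186 to 0.195% of them in knockdown and 0.215 to 0.248% in wild type. Ddx54 was at 45.9, 39.2 and 45.8 CPM (counts relative to library size, TMM-scaled) in the knockdown libraries, against 80.4, 82.5, 78.6 and 83.2 CPM in the wild-type libraries. Ddx54 thus fell by 0.90 on the log2 scale (SE 0.096, adjusted p = 6.55e-09, edgeR), and no library went against its label. Genes annotated on the opposite strand overlap exons of Ddx54, and no strand setting was stated. The libraries also differed by group in other measures without overlap: the ribosomal RNA gene Rn45s took 7.96 to 9.07% of counts in knockdown and 10.7 to 12.5% in wild type, genes with a count numbered 13105 to 13347 in knockdown and 12698 to 12875 in wild type, and TMM factors were 1.025 to 1.041 in knockdown and 0.963 to 0.989 in wild type. Their part in the results was not tested. Of 11 epithelial markers 3 could be tested: Krt18 (131.7 CPM in knockdown, 217.5 CPM in wild type) and Krt19 (1.08 CPM in knockdown, 4.39 CPM in wild type) fell (adjusted p = 4.62e-10 and 0.000811, edgeR), Krt8 averaged 23.6 CPM in knockdown and 20.3 CPM in wild type and did not pass, and Epcam and Cdh1 were near 0 in both groups. Of 10 fibroblast markers 5 could be tested and 0 passed in edgeR, with 1 at an unadjusted p under 0.05. Pdgfra averaged 24.5 CPM in knockdown and 18.99 CPM in wild type (adjusted p = 0.0578, edgeR), Col1a1 0.304 CPM in knockdown and 0.788 CPM in wild type, and Col3a1, named for its abundance, 1059 CPM in knockdown and 1105 CPM in wild type, with Thy1 and Postn at 0 in all libraries. Summed marker levels were 3.19 to 5.21 CPM in knockdown and 2.34 to 5.16 CPM in wild type for 10 leukocyte genes, and 0.706 to 1.19 CPM in knockdown and 1.07 to 3.19 CPM in wild type for 8 endothelial genes. Of these, Cd68 (3.75 CPM in knockdown, 3.63 CPM in wild type) and Plvap (0.638 CPM in knockdown, 1.30 CPM in wild type) could be tested, and neither passed.

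The promoters of 3 members that changed are shown because their windows hold the C/EBP-ATF core or the E-box, letters of binding sites described below. RefSeq windows (GRCm38.p6) were found for 31 of the 42 members, as 42 windows of 300 bases, 250 before a transcript start and 50 after it. They were searched on both strands for TGATGNAA, the core of the C/EBP-ATF response element that Atf4 binds with C/EBP partners, for TGACNNNGC, the core of the antioxidant response element of Nrf2, and for CACGTG, the palindromic E-box. Slc7a11 is at chr3:50443564-50443863 on the minus strand, Slc1a4 at chr11:20332664-20332963 on the minus strand and Slc36a1 at chr11:55204090-55204389 on the plus strand. Capitals mark the matches, and each window is written 5′ to 3′ on the strand of its gene.
Slc7a11: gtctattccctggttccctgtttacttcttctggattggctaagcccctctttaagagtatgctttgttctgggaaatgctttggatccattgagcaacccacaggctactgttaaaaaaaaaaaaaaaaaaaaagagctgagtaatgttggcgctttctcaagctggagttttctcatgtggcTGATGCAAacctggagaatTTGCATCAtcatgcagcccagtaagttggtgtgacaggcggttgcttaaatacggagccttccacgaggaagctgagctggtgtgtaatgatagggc
Slc1a4: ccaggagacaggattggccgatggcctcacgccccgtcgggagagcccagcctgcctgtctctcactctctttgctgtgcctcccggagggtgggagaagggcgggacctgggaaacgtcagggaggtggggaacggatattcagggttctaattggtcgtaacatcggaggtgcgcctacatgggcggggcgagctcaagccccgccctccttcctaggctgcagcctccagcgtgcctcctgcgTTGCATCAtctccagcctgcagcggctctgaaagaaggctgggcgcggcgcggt
Slc36a1: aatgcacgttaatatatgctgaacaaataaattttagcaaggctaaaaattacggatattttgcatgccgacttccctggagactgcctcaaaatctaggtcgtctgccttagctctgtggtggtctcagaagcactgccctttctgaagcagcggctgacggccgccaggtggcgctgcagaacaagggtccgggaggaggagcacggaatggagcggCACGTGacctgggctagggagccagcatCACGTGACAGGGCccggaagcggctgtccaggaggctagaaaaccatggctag

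The Slc7a11 window holds the C/EBP-ATF core at positions -66 to -59 and again, on the opposite strand, at -47 to -40, counting the first base of the transcript as 1. In Slc1a4 a core on the opposite strand lies across the start, from -4 to 4. Slc36a1 has the E-box at -31 to -26 and at -3 to 3, and the second box overlaps an antioxidant core at 2 to 10. The C/EBP-ATF core was in 4 of the 42 member windows (9.52%) and in 3.97% of all 32851 windows of the table, the E-box in 7 (16.7%) and in 7.15%, and the antioxidant core in 6 (14.3%) and in 12.4%. The 4 windows with the C/EBP-ATF core belong to Slc7a11, Slc1a4 and, with 2 windows, Slc7a7, which averaged 0.551 CPM in knockdown and 0.583 CPM in wild type. The 2 Slc7a7 windows overlap and share 1 match, so that site is counted in both. A window was found for 6 of the 7 members called lower, and 2 of these 6 held the C/EBP-ATF core. Of the 2 members called higher, 1 had a window, without this core. The antioxidant core was also in windows of the called members Slc7a1 (-11 to -3) and Slc38a2 (-27 to -19), which are not shown. It was in windows of Slc7a6 and Slc43a1 as well, which were not called. The 2 Slc7a6 windows with the antioxidant core likewise overlap and share 1 match. Beside Slc36a1, the E-box was in windows of Slc38a7 and Slc43a1, not called, and of Slc1a6, Slc1a7, Slc38a5 and Slc7a14, not tested. A match is a run of letters and was not tested for binding.

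Of the 42 members, 23 passed the filter on low counts and could be tested, and of these 2 rose and 7 fell in knockdown relative to wild type, while 14 missed the threshold. Differential expression was tested with edgeR's quasi-likelihood test, with p-values adjusted over all 11594 tested genes by the Benjamini-Hochberg method and a threshold of 0.05. The 2 members higher are 8.70% of the tested members, against 14.1% of all tested genes called higher, and the 7 lower are 30.4%, against 15.3% called lower. In either direction 39.1% of the tested members passed, beside 29.4% of all tested genes. The ranges of the groups did not overlap for 8 of the 23 members (34.8%), near the 35.1% of all tested genes. The median log2 fold change was 0.01 over the 23 members and 0.001 over all tested genes, and no test set the members against other genes. Without wild-type replicate 3 the members called higher numbered 4 and the median was -0.055.

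The 7 members that fell were Slc3a2, Slc7a5, Slc7a11, Slc7a1, Slc1a4, Slc38a2 and Slc43a2, and the 2 that rose were Slc38a1 and Slc36a1. By family, 1 of 1 tested Slc3a gene fell, 3 of 7 Slc7a genes, 1 of 3 Slc1a genes, 1 of 7 Slc38a genes and 1 of 3 Slc43a genes, and the rises were 1 of 7 Slc38a genes and 1 of 2 Slc36a genes. Slc43a2 alone changed by at least 1 log2 unit.

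**Figure D1:**
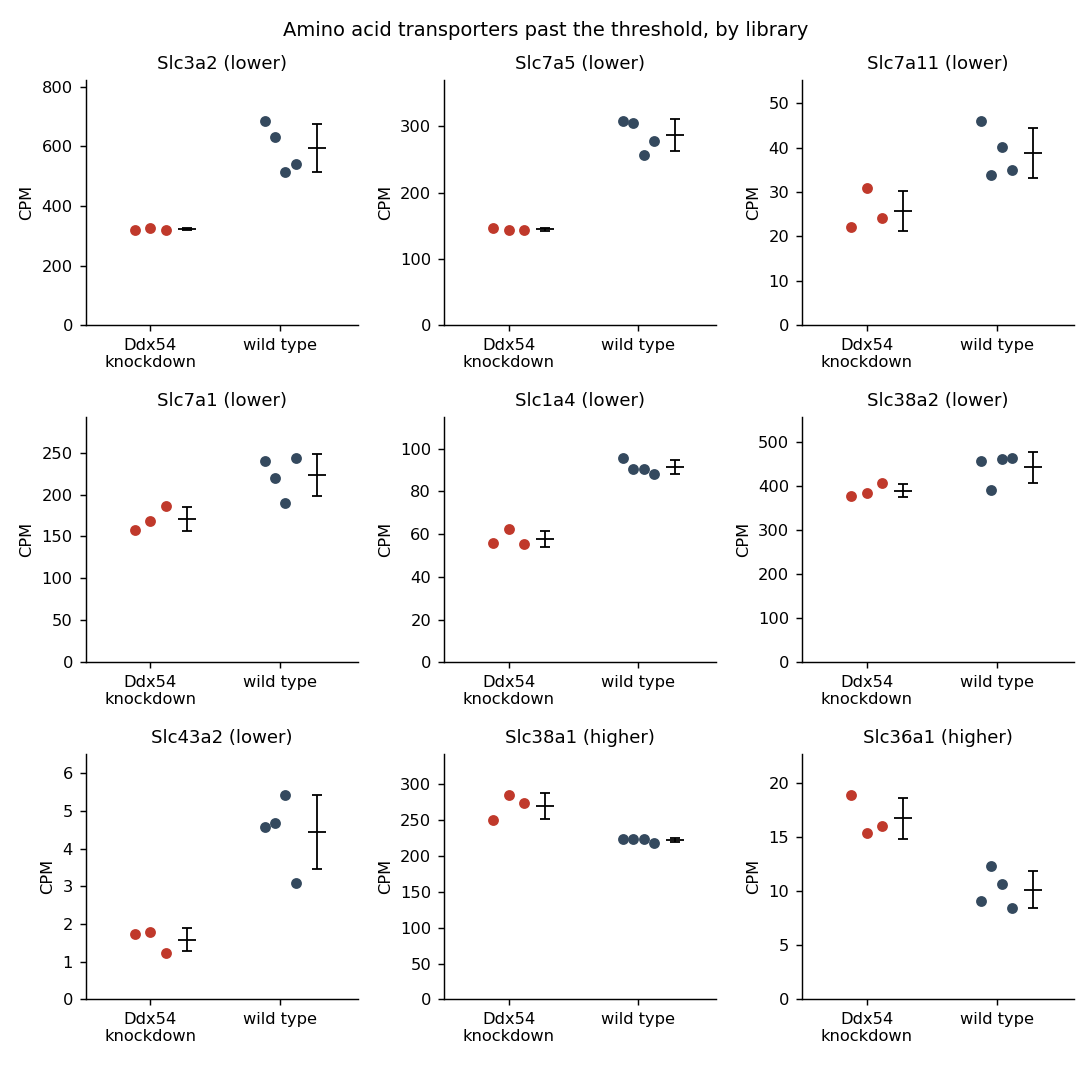
Level in CPM of the 9 members past the threshold in each library, with Ddx54 knockdown (3 libraries) left of wild type (4 libraries), and the mean ± SD as a black bar beside each group. The knockdown points lie below all wild-type points for 6 of the 7 lower members, Slc38a2 being the exception, and above all wild-type points for Slc38a1 and Slc36a1.

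Slc3a2 and Slc7a5, which encode the heavy chain 4F2hc and the light chain LAT1 of the leucine exchanger, were the most changed of the abundant members. Slc3a2 (chromosome 19, 8706882 to 8723369, minus strand, GRCm38) was at 319.8, 325 and 321 CPM in the knockdown libraries, against 687, 633, 514 and 542 CPM in the wild-type libraries. The knockdown libraries were nearly level with each other and all lay far below the lowest wild-type library. Mean Slc3a2 was 54.2% of wild type in knockdown, and the log2 ratio of knockdown to wild type was -0.88 (SE 0.075, adjusted p = 1.27e-10, edgeR). Slc7a5 (chromosome 8, 121881150 to 121907694, minus strand) was at 147, 144 and 143 CPM in knockdown, against 309, 304, 257 and 278 CPM in wild type. As for Slc3a2, the knockdown values were close together and the groups did not overlap. The knockdown mean of Slc7a5 was 50.5% of wild type (log2 fold change -0.99, SE 0.071, adjusted p = 1.36e-12, edgeR). In bulk RNA, fewer cells with a transcript and less transcript per cell cannot be told apart.

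Slc7a11 encodes xCT, the light chain that imports cystine in exchange for glutamate and so supplies cysteine for glutathione. It was at 22.1, 30.8 and 24.1 CPM in the knockdown libraries, against 46.1, 33.8, 40.2 and 34.9 CPM in the wild-type libraries. The groups came close to each other without overlapping, and the log2 fold change was -0.59 (SE 0.14, adjusted p = 0.00131, edgeR). The other light chains of Slc3a2 with any count, Slc7a6 and Slc7a7, were not called. Slc7a6, which encodes y+LAT2, an exchanger of arginine for glutamine, averaged 23.5 ± 3.75 CPM in knockdown and 20.0 ± 1.995 CPM in wild type (SD, n = 3 and n = 4; log2 fold change 0.23, 95% interval -0.08 to 0.55).

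Set against Slc3a2 by level per kilobase of exon, the summed light chains kept nearly the same mean ratio in both groups. Slc7a5 per Slc3a2 was 0.438, 0.422 and 0.425 in the knockdown libraries, against 0.428, 0.458, 0.475 and 0.488 in the wild-type libraries, so the groups overlapped. All light chains together stood at 0.507 ± 0.0036 per Slc3a2 in knockdown and at 0.507 ± 0.032 in wild type (SD, n = 3 and n = 4). Slc7a6 per Slc3a2 was 0.0465, 0.0628 and 0.0596 in knockdown and 0.0204, 0.0228, 0.0313 and 0.0319 in wild type. That ratio had a mean 2.12 times as high in knockdown, with no overlap, Slc3a2 being called lower and Slc7a6 not called. These ratios are descriptions with no test. The heavy chain Slc3a1, which pairs with the cystine and dibasic amino acid carrier Slc7a9, had 5 counts in knockdown, all in replicate 1. It had 0 in wild type, and Slc7a9 had none in either group. Exons of Slc3a1 overlap a gene on the opposite strand.

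**Figure D2:**
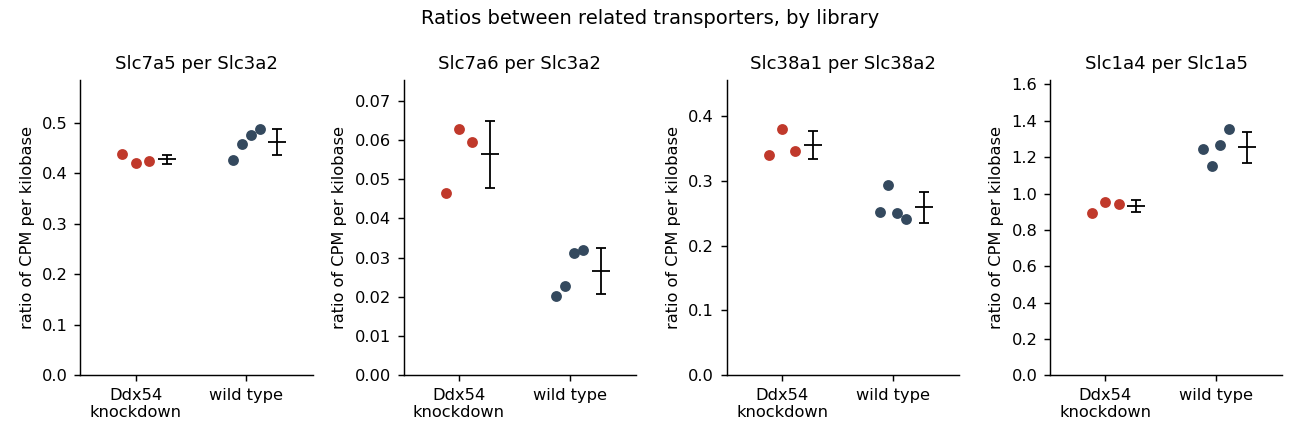
Ratio of CPM per kilobase of merged exon length between related transporters in each library, with Ddx54 knockdown (3 libraries) left of wild type (4 libraries) and the mean ± SD as a black bar. Slc7a5 per Slc3a2 overlaps between the groups, while Slc7a6 per Slc3a2 and Slc38a1 per Slc38a2 lie higher and Slc1a4 per Slc1a5 lower in all knockdown libraries.

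Among the cationic carriers, Slc7a1 fell and the other members were scarce. Slc7a1 encodes CAT1, the main arginine and lysine importer of dividing cells, and lies on chromosome 5 (148327410 to 148399904, minus strand). It was at 158, 168 and 186 CPM in knockdown, against 240.1, 220.0, 189.8 and 244 CPM in wild type. The highest knockdown library was just under the lowest wild-type library. The fold change of -0.39 on the log2 scale (SE 0.079, adjusted p = 0.000238, edgeR; 95% interval -0.55 to -0.23) was smaller than that of Slc7a5, whose interval was -1.13 to -0.84. Slc7a3, the related carrier CAT3, averaged 6.47 ± 2.19 CPM in knockdown and 8.77 ± 1.93 CPM in wild type, and did not pass (adjusted p = 0.23, edgeR). Slc7a2, which encodes CAT2, had 1 count in knockdown and 0 in wild type. Slc7a4, a relative of the CAT carriers whose substrate is not settled, averaged 2.51 ± 1.42 CPM in knockdown and 1.59 ± 0.362 CPM in wild type, with overlapping groups, and did not pass.

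In the Slc1a family, the neutral amino acid exchangers Slc1a4 and Slc1a5 were both expressed, and Slc1a4 fell. Slc1a4, the carrier ASCT1 for serine, alanine and threonine, was at 55.8, 62.2 and 55.4 CPM in knockdown, against 95.7, 90.4, 90.7 and 88.0 CPM in wild type. All 3 knockdown libraries were well below the 4 wild-type libraries, which were close together (log2 fold change -0.66, SE 0.089, adjusted p = 5.54e-07, edgeR). Slc1a5, the glutamine exchanger ASCT2 of many tumour cells, was at 66.3, 69.3 and 62.3 CPM in knockdown, against 81.8, 83.6, 76.1 and 69.0 CPM in wild type. Here the highest knockdown library and the lowest wild-type library were nearly equal and overlapped, and the log2 fold change of -0.23 (SE 0.093) missed the threshold (adjusted p = 0.0551, edgeR). Slc1a5 passed without wild-type replicate 4 (adjusted p = 0.024). The ratio of Slc1a4 to Slc1a5 per kilobase was 0.895, 0.954 and 0.945 in knockdown, against 1.24, 1.15, 1.27 and 1.36 in wild type, with no overlap between the groups.

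Of the high-affinity glutamate carriers of the same family, Slc1a3 was at a low level and the others had few or no counts. Slc1a3, which encodes the glial glutamate transporter EAAT1, averaged 4.99 ± 0.806 CPM in knockdown and 4.38 ± 1.93 CPM in wild type and did not pass (adjusted p = 0.741, edgeR). Slc1a2 and Slc1a6, known from astrocytes and neurons, had no count in any library. Of 5 markers of those cells Gfap and Aqp4 had no count, and Snap25, the one tested, averaged 1.04 CPM in knockdown and 2.46 CPM in wild type and did not pass (adjusted p = 0.126, edgeR). Syt1 had 19 counts in knockdown and 12 in wild type, and Rbfox3 had 0 in knockdown and 8 in wild type. Slc1a1 had 8 counts in knockdown, all in replicate 1, and 0 in wild type, and Slc1a7 had 0 in knockdown and 1 in wild type.

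The Slc38a family, sodium-coupled carriers of glutamine and other neutral amino acids, moved in both directions. Slc38a1, Slc38a2 and Slc38a4 lie side by side on chromosome 15, at 96571418 to 96642913, 96687392 to 96699730 and 96994820 to 97055956, all on the minus strand. Slc38a1, which encodes the glutamine importer SNAT1, was at 250.4, 285 and 274 CPM in knockdown, against 223, 224, 224 and 218 CPM in wild type. Every knockdown library was above the wild-type libraries, which were almost equal, and Slc38a1 rose by 0.28 on the log2 scale (SE 0.065, adjusted p = 0.00113, edgeR). Slc38a2, which encodes SNAT2, a carrier known to be induced when amino acids are withdrawn, was at 378, 386 and 407 CPM in knockdown, against 456, 391, 461 and 464 CPM in wild type. Its groups overlapped at wild-type replicate 2, and its log2 fold change was -0.18 (SE 0.065, adjusted p = 0.0308, edgeR).

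Of the 9 calls, Slc38a2 alone was lost under any of the alternative settings that left out a library. It did not pass without knockdown replicate 1 (adjusted p = 0.138), without knockdown replicate 2 (0.109) and without wild-type replicate 1 (0.0684), 3 (0.0824) or 4 (0.0837). Slc38a4, the remaining one of these neighbours and an amino acid carrier best known from liver and placenta, averaged 94.9 ± 9.98 CPM in knockdown and 94.1 ± 4.46 CPM in wild type (log2 fold change 0.01, 95% interval -0.16 to 0.19). The length-scaled level of Slc38a1 per Slc38a2 was 0.340, 0.379 and 0.346 in knockdown and 0.251, 0.294, 0.249 and 0.241 in wild type, so the share of SNAT1 was larger in every knockdown library.

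The other expressed Slc38a genes were not called. Slc38a10, a widely expressed member, averaged 189.0 ± 6.73 CPM in knockdown and 182.9 ± 20.9 CPM in wild type (log2 fold change 0.05, 95% interval -0.11 to 0.20). Slc38a7, a lysosomal glutamine carrier, averaged 18.4 ± 2.54 CPM in knockdown and 17.6 ± 1.77 CPM in wild type (log2 fold change 0.07, 95% interval -0.27 to 0.41). Slc38a9, the lysosomal arginine sensor that signals to mTORC1, was at 9.725, 11.3 and 11.4 CPM in knockdown, against 6.81, 6.66, 10.1 and 6.04 CPM in wild type. Only wild-type replicate 3 reached the knockdown values. The log2 fold change of Slc38a9 was 0.55 (SE 0.23, adjusted p = 0.0703, edgeR), and without that library it was 0.73 with an adjusted p of 0.022. Slc38a6 had the same library high, with 14.7, 13.6 and 18.6 CPM in knockdown, against 9.375, 7.95, 16.5 and 12.4 CPM in wild type (log2 fold change 0.43, adjusted p = 0.13; 0.65 and 0.0239 without wild-type replicate 3).

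Slc36a1, which encodes the proton-coupled carrier PAT1 that exports small neutral amino acids from lysosomes, had the larger of the 2 called rises. It lies on chromosome 11 (55204350 to 55236330, plus strand) and was at 18.9, 15.4 and 16.0 CPM in knockdown, against 9.10, 12.3, 10.7 and 8.47 CPM in wild type. The groups did not overlap, and the knockdown mean was 165.4% of wild type (log2 fold change 0.73, SE 0.19, adjusted p = 0.00364, edgeR). Of the lysosomal carriers Slc36a1, Slc38a7 and Slc38a9, Slc36a1 was the one that passed. Slc36a4, a further carrier of the family, averaged 0.544 ± 0.564 CPM in knockdown and 1.07 ± 0.503 CPM in wild type, too few reads for a firm comparison (95% interval of the log2 fold change -2.72 to 0.80). Slc36a2 and Slc36a3, which lie next to Slc36a1 on chromosome 11, had no count in any library.

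The Slc43a family held 1 called member, at a low level. Slc43a2, which encodes LAT4, a uniporter for leucine and other large neutral amino acids, was at 1.73, 1.79 and 1.24 CPM in knockdown, against 4.58, 4.69, 5.425 and 3.08 CPM in wild type. It fell by 1.48 on the log2 scale (SE 0.41, adjusted p = 0.00588, edgeR; 95% interval -2.31 to -0.64), with no overlap, on 81 counts in knockdown and 288 in wild type. An antisense gene overlaps its exons, and without a stated strand setting reads of that gene cannot be told apart from those of Slc43a2. The same holds for Slc7a4, Slc7a7, Slc38a9 and Slc38a10, whose exons also overlap a gene on the opposite strand. Slc43a3, a family member that carries purine nucleobases, averaged 18.0 ± 3.24 CPM in knockdown and 14.6 ± 1.39 CPM in wild type and did not pass (log2 fold change 0.31, 95% interval -0.05 to 0.66). Slc43a1, which encodes the leucine uniporter LAT3, had 16, 12 and 12 counts in the knockdown libraries, against 1, 16, 1 and 0 in the wild-type libraries, and did not pass (adjusted p = 0.358, edgeR).

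**Figure D3:**
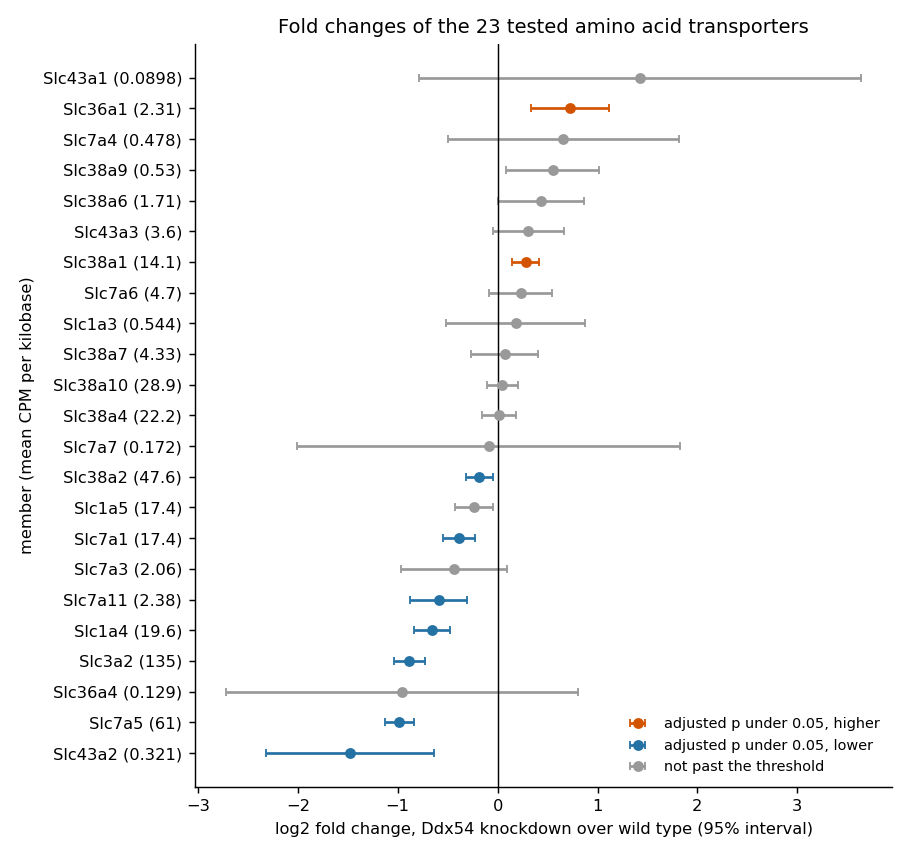
Log2 fold change of Ddx54 knockdown over wild type for the 23 tested members, with the 95% interval as a bar and the mean level in CPM per kilobase in brackets. The 7 lower members (blue) and 2 higher members (orange) have intervals clear of 0, and the widest intervals belong to members with the lowest levels.

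Scaled by merged exon length, transporter transcript was concentrated in a few genes. Slc3a2 made up 29.3 ± 0.089% of the summed level of all members in knockdown and 37.9 ± 2.40% in wild type. Slc7a5 made up 12.5 ± 0.24% in knockdown and 17.5 ± 0.43% in wild type, and Slc38a2 14.2 ± 0.54% in knockdown and 11.4 ± 1.42% in wild type. By this length Slc7a5 ranked next below Slc3a2 in wild type and Slc38a2 after it. In knockdown Slc38a2 was above Slc7a5 in each library. This change of order between the groups depends on the length. By principal transcript (4660 bases for Slc38a2, 3517 for Slc7a5) Slc38a2 was above Slc7a5 in the wild-type mean too, though not in wild-type replicate 2. Next came Slc38a10, Slc38a4, Slc1a4, Slc7a1, Slc1a5 and Slc38a1, with means over all libraries from 28.9 down to 14.1 CPM per kilobase, and Slc7a1 and Slc1a5, at 17.4 each, overlapped. The next member, Slc7a6, was at 4.70 CPM per kilobase. The order depends on the length used: by principal transcript over all libraries Slc3a2 stayed at rank 1 and Slc38a10 at 4, while Slc38a2 ranked at 2, Slc7a5 at 3, Slc38a1 at 5, Slc7a1 at 6, Slc1a5 at 7, Slc38a4 at 8 and Slc1a4 at 9.

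**Figure D4:**
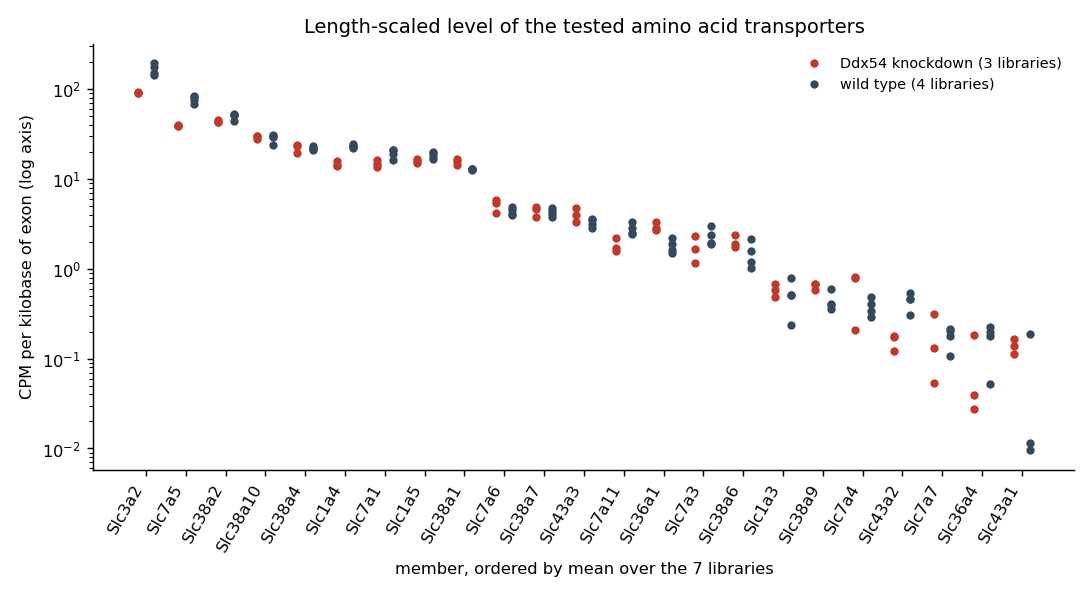
Level of the 23 tested members in CPM per kilobase of exon on a log axis, 1 point per library, with Ddx54 knockdown (3 libraries) left of wild type (4 libraries) at each gene. Slc3a2 is highest in both groups, and wild-type replicate 4, with no count of Slc43a1, has no point there.

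In sum over the 42 members, knockdown libraries held 1852 ± 32.5 CPM and wild-type libraries 2357 ± 132.9 CPM (SD, n = 3 and n = 4). The net difference of -505 CPM lay mostly in the LAT1 pair. Slc3a2 and Slc7a5 together were at 464.2 to 468.9 CPM in knockdown and 770.3 to 995 CPM in wild type, which is 82.0% of the net difference. The 40 other members summed to 1347 to 1407 CPM in knockdown and 1426 to 1530 CPM in wild type, a gap of 18.0% of the net difference, still without overlap. Among these 40, falls such as those of Slc38a2 (-53.0 CPM) and Slc7a1 (-52.8 CPM) were partly offset by rises. The largest rise was that of Slc38a1 (47.6 CPM).

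The 19 members that could not be tested held at most 8 counts over all libraries. Of these, 12 had no count at all: Slc1a2, Slc1a6, Slc7a8, Slc7a9, Slc7a10, Slc7a12, Slc7a13, Slc7a15, Slc36a2, Slc36a3, Slc38a5 and Slc38a11. A count of 0 over a group allows up to 0.0612 CPM in knockdown and 0.0449 CPM in wild type, from 3 counts of the group's total and for counting error only. The other 7 were Slc3a1, Slc7a2, Slc7a14, Slc1a1, Slc1a7, Slc38a3 and Slc38a8. Members with no or almost no count thus include Slc7a8 (LAT2), the light chain most like LAT1, and Slc38a3 and Slc38a5, the system N glutamine carriers of liver and other tissues.

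Amino acid and peptide carriers outside these families showed 1 call among 7 tested of 23 in the table, 14.3% beside 29.4% of all tested genes. Slc6a9, which encodes the glycine transporter GlyT1, fell to 26.2 ± 4.35 CPM in knockdown, against 52.1 ± 3.84 CPM in wild type (log2 fold change -0.995, SE 0.13, adjusted p = 1.75e-07, edgeR). Pqlc2, a lysosomal exporter of cationic amino acids, averaged 3.62 ± 2.02 CPM in knockdown and 1.65 ± 0.898 CPM in wild type and did not pass (adjusted p = 0.113). Of these carriers 0 were called higher by edgeR, DESeq2 or limma-voom, 1 had an unadjusted p under 0.05 in edgeR, and 1 was called higher without knockdown replicate 2. Over the other Slc genes of the table, 24 of 157 tested were higher and 14 lower in knockdown, 24.2% in either direction beside the same 29.4%, with a median log2 fold change of 0.095. The tested members had 2 higher and 7 lower of 23, and the difference between these shares was not tested.

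Genes of amino acid sensing through mTORC1 and the Gcn2 kinase gave 4 higher and 6 lower of 34 tested. That is 29.4% in either direction, the same share as over all tested genes, with a median log2 fold change of 0.02. The list also holds both kinases and other mTORC1 regulators, not sensors alone. Sesn2, a leucine-binding inhibitor of mTORC1 signalling, fell by 1.17 on the log2 scale, and its relative Sesn1 by 0.68. Mios, a subunit of the GATOR2 complex, fell by 0.49, and Mlst8, a subunit of mTORC1 itself, rose by 0.71. Among 25 genes known to respond to amino acid shortage, Atf4 included, 22 were lower in edgeR, 88% beside 15.3% of all tested genes. In edgeR 0 were higher, beside 14.1% of all tested genes, and 0 were higher in DESeq2 and limma-voom. At an unadjusted p under 0.05 in edgeR 0 were higher. Sesn2 is counted here as well as among the sensing genes. The median log2 fold change of the 25 genes was -0.95. This list was chosen with its fall in these libraries already known, so its count is not independent evidence. Trib3 (-2.15), Ddit3 (-2.11), Atf3 (-2.01) and Nupr1 (-1.82) led it. Of the 9 called members, Slc7a5 and Slc43a2 fell at least as far as the list's median, as did Slc6a9 outside these families. The 95% intervals of Slc7a5 (-1.13 to -0.84) and of Slc3a2 (-1.04 to -0.73) both held that median. It therefore does not set Slc7a5 apart from Slc3a2. Whether the transporters' levels depend on Atf4 was not tested.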

How the data were processed

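The authors deposited one table of raw read counts per gene symbol for 7 libraries, with 0 further sample columns. Per the submitters' processing notes, the tools were Trimmomatic, STAR and HTSeq and the build was mm10, with neither versions nor settings. The annotation, the strand setting and the handling of multi-mapped reads were not stated. Members and lists were chosen with earlier results of these data known.

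The deposited counts went into edgeR 4.0.16 (R 4.3.3). After filterByExpr on the group, 11594 genes were scaled by TMM factors and tested with the robust quasi-likelihood test of knockdown (n = 3) against wild type (n = 4) without covariates. P-values were adjusted over all of these, with a threshold of 0.05. The standard error was approximated as the size of the log2 fold change over the root of its F statistic, and 95% intervals rest on it. CPM are TMM-scaled and given as mean ± SD. Levels per kilobase use the merged exon length of GENCODE M21 (GRCm38), which is longer than any single transcript where isoforms differ. Symbols matched that annotation for 96.3% of tested genes.

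Every called member is named, as is every tested member with a mean of at least 10 CPM; in the context and marker lists, up to 4 called genes with the largest change are named, or, with fewer than 2 called, the 2 genes lowest in p. Atf4, Krt8, Epcam, Cdh1, Col3a1, Thy1 and Postn were added after their values were seen. Gfap, Aqp4, Syt1 and Rbfox3, which could not be tested, were also named outside this rule.

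As alternatives, the fit was repeated with RLE or upper-quartile factors, without a filter on low counts, with at least 50 counts in 3 libraries, in DESeq2 1.42.0 and limma-voom 3.58.1, with a block for the replicate number, and without each library in turn. A principal transcript length was added after seeing the data. Counts were simulated for 11425 genes, of which 66 were given a change at each size. The test found 54.5% of those changed by 0.5 on the log2 scale, 84.8% at 1 and 90.9% at 2. It made 7 false calls, 4.4% of its calls. Far fewer genes changed there than the 29.4% called in the data, so these rates may not hold for this comparison. Every pair of libraries within a group differed by more than counting error (chi-square per degree of freedom 8.31 to 16.3).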

Additional observations from a re-analysis of the deposited data

Results flagged for a closer look

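In the wild-type group of 4, 31 quantities (the tested members, Ddx54, the ratios and the summed level) were checked with Dixon's gap criterion for 1 library far from its group, and 3 had one, where chance gives about 1.55. Slc38a2 was at 391 CPM in wild-type replicate 2, against 456 to 464 CPM in the other wild-type libraries; that library is the one that overlaps the knockdown range. Without it the log2 fold change of Slc38a2 was -0.24 with an adjusted p of 0.00167 (edgeR), over a range of 0.00167 to 0.138 across the alternatives. Slc38a1 was at 218 CPM in wild-type replicate 4, against 223 to 224 CPM in the others, a small gap in a group that varied little. Slc43a1 was at 1.09 CPM in wild-type replicate 2, from 16 counts, against 0 to 0.065 CPM in the other wild-type libraries. Without that library Slc43a1 passed as higher in knockdown (log2 fold change 4.09, adjusted p = 0.0228, edgeR), over a range of adjusted p of 0.0228 to 0.565 across the alternatives.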

How the results depend on the processing

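All calls except Slc38a2 kept their direction and passed under each of the 14 alternatives run. Slc38a2 was lost with the block and without knockdown replicate 1 or 2 or wild-type replicate 1, 3 or 4. Members lower numbered 6 to 8 over all settings. Members higher numbered 2 with all libraries under every setting and 2 to 4 with 1 library left out, the 4 without wild-type replicate 3. With 1 library left out, other amino acid transporters called higher numbered 0 to 1, and the median log2 fold change of the tested members was -0.055 to 0.039. By principal transcript length the light chains per Slc3a2 were 0.2851 in knockdown and 0.2816 in wild type, against 0.5065 in both by merged exon length; the ratio is lower because the length of Slc3a2 is shorter. Uncalled members changed sign with 1 library left out, with log2 fold changes of -0.055 to 0.472 for Slc1a3, -0.034 to 0.089 for Slc38a10, -0.048 to 0.095 for Slc38a4, -0.008 to 0.178 for Slc38a7 and -0.902 to 0.327 for Slc7a7; the cause was not tested. Slc1a5 gained its call in 5 alternatives, the block among them.

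No pairing by replicate number was seen: same-numbered libraries had correlations of -0.034, -0.027 and -0.006 in their deviations from the group means. This check cannot tell whether the numbers mark a common preparation. With the number as a replicate block, 2 members were higher and 7 lower, Slc38a2 (log2 fold change -0.157, adjusted p = 0.113) losing its call and Slc1a5 (-0.288, adjusted p = 0.0384) gaining one, and over all genes 1375 were higher and 1487 lower, against 1635 and 1770 without it. Depth limits Slc36a4, Slc43a1, Slc7a4 and Slc7a7, each with a mean under 3 CPM. The called member Slc43a2 was little above this, at a mean of 3.22 CPM, with 29, 33 and 19 counts in the knockdown libraries.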
